A study of Mus musculus with 28 samples.

Results

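The comparison described here set 4 whole-kidney libraries of Rhbdf2-/- mice against 4 whole-kidney libraries of wild-type (WT) mice. Members were all kidney libraries whose genotype label read Rhbdf2-/- or WT, which makes 8 of the 28 libraries of the series and 8 of its 16 kidney libraries. All came from female C57BL/6 littermates aged 7 to 9 months, whose kidneys were perfused before RNA was taken from the whole organ. Polyadenylated RNA was made into libraries with a TruSeq kit and read as single 50-base reads. The Rhbdf2-/- libraries were iR2ko_334, iR2ko_351, iR2ko_352 and iR2ko_355, run on lane 6, and the WT libraries were WT_346, WT_356, WT_388 and WT_550, run on lane 5. Lane and genotype therefore cannot be told apart. The labels do not say which part of Rhbdf2 the mutation removes. The titles give every library a number of its own, but no label says that each came from a separate mouse, so the p-values measure the spread between these libraries.

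Rhbdf2 encodes iRhom2, a catalytically inactive rhomboid protein of the endoplasmic reticulum. The protease ADAM17 depends on it for transport to the surface of the cell. There ADAM17 cuts membrane-bound proteins, among them TNF, TNF receptors and a number of EGF receptor ligands, and so frees them. iRhom2 is best known in macrophages, while its relative iRhom1 (Rhbdf1) serves ADAM17 in many other cell types. Both act on proteins after translation, which transcript levels do not measure. The comparison asks what a healthy kidney looks like without iRhom2, and how large a difference in transcript level could have gone unseen.

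The 8 libraries held 32926359 to 36902183 reads in the listed genes, and 1 read was worth 0.0286 to 0.0313 CPM. CPM is the unit of level used here, in which reads are scaled to a size set for each library. That size lies behind the deposited values and need not equal the number of reads, so summed CPM differ between libraries. Most of the 12315 listed genes were within a small margin of their WT level. With limma on log2(CPM + 1), 0 of 12315 genes passed a Benjamini-Hochberg adjusted p of 0.05, a background of 0.0% called, and the smallest adjusted p was 0.101, for Slc6a19. At an unadjusted p under 0.05 there were 1137 genes (9.23%), 467 higher (3.79%) and 670 lower (5.44%) in Rhbdf2-/- kidney, where 616 would be expected if no gene differed. Higher genes made up 41.1% of these, but 31.0% after scaling the libraries to the same median and 26.0% after rescaling every library to the same summed CPM. limma-voom on recovered reads also called 0 genes, with 1122 at an unadjusted p under 0.05, and the authors' deposited table holds 0 genes at a false discovery rate under 0.05 and 283 at p under 0.05. With the 4 Rhbdf2-/- libraries above or below all 4 WT libraries, 706 genes did not overlap (5.73%), 312 of them higher (2.53%) and 394 lower (3.2%). The median SD of log2(CPM + 1) was 0.0955 in Rhbdf2-/- and 0.0908 in WT kidney, against 0.141 in double-mutant and 0.196 in Fcgr2b-/- libraries. Only the 8 libraries were fitted, a choice made with earlier results of these data known. A fit of all 16 kidney libraries called 0 genes and had 272 at an unadjusted p under 0.05. That is fewer than the 616 expected if no gene differed, so the excess of small p-values was not seen in that fit.

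The median size of the change over all genes was 0.06 on the log2 scale, and the median half-width of its 95% interval was 0.16, which is 1.12-fold. In the fit of all 16 kidney libraries the median half-width was wider, at 0.23. The interval lay within a 2-fold change either way for 12137 genes (98.6%) and within 1.5-fold for 11444 genes (92.9%). A test for equivalence within 2-fold, adjusted over all genes, was passed by 12184 genes (98.9%). The width of the interval differed with the level. The median half-width was 0.36 for the 118 genes under 1 CPM, 0.25 for the 2804 genes of 1 to 10 CPM, 0.14 for the 7287 genes of 10 to 100 CPM, 0.12 for the 2024 genes of 100 to 1000 CPM and 0.18 for the 82 genes of 1000 CPM and over. Estimates past 1.5-fold were found for 51 genes, 21 higher and 30 lower, and past 2-fold for 9. Because 1 CPM was added to every value, low genes have smaller estimates than their CPM ratios. For low genes these counts therefore do not bound the ratio of CPM. Of the 118 genes under 1 CPM, 116 had an interval within 2-fold. Sele averaged 0.676 CPM in Rhbdf2-/- and 1.80 CPM in WT kidney, yet its log2 estimate was -0.74. Upk2, at 1.18 and 3.26 CPM, had an estimate of -0.92. Library to library, the root mean square difference over all genes had a median of 0.243 across the 16 pairs of one Rhbdf2-/- and one WT library, 0.256 within the Rhbdf2-/- group and 0.244 within the WT group. Libraries of different genotype were thus no further apart than libraries of the same genotype.

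**Figure D1:**
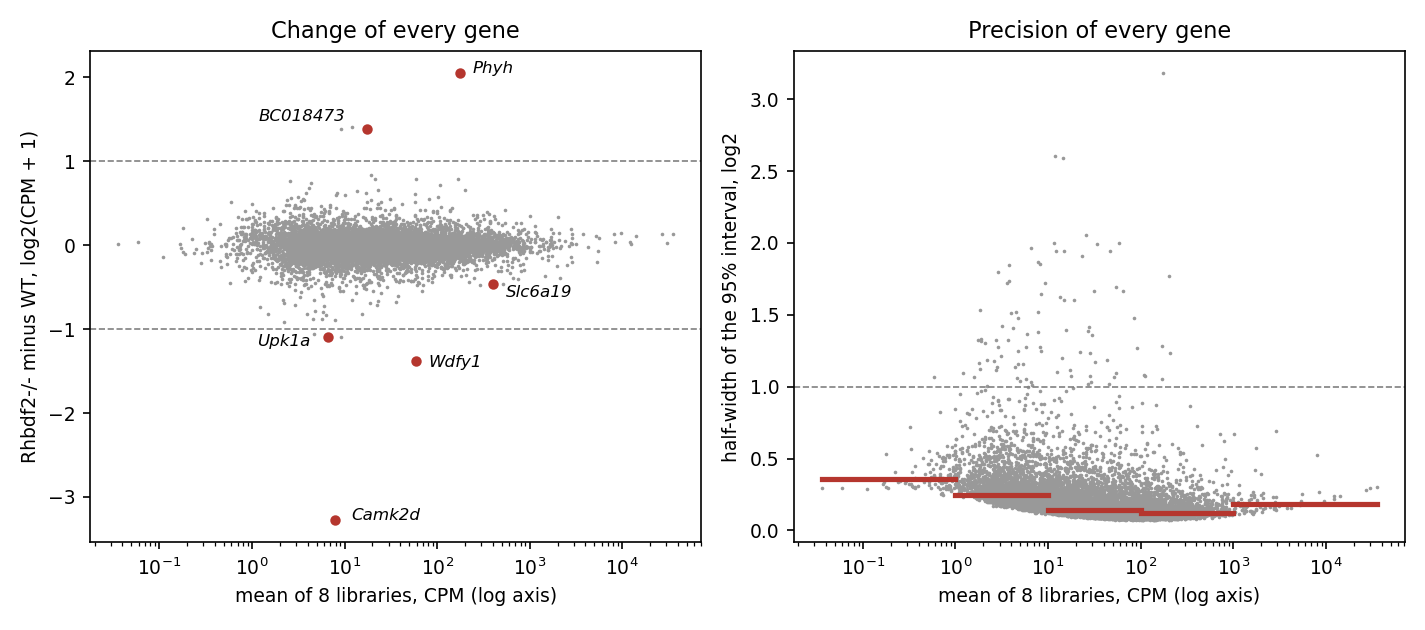
Left, the change of each of 12315 genes (Rhbdf2-/- minus WT, log2(CPM + 1)) against its mean CPM over 8 libraries; dashed lines mark 2-fold. Right, the half-width of each gene's 95% interval, with the median of each level class as a red line, 0.36 under 1 CPM, 0.12 at 100 to 1000 CPM and 0.18 at 1000 CPM and over; 6 genes that the text describes are named on the left.

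The shedding machinery itself was close to WT. Rhbdf2 was listed at 12.2, 10.8, 11.4 and 12.3 CPM in Rhbdf2-/- libraries, against 12.9 CPM in each WT library, without overlap (log2 change -0.13, 95% interval -0.26 to -0.01). The table gives 1 value for the whole gene (chr11:116598164-116627019, mm10), which does not check the label, and the gene did not pass the adjusted test. Rhbdf1, which encodes the relative iRhom1, averaged 42.8 ± 3.34 CPM in Rhbdf2-/- and 40.8 ± 3.61 CPM in WT kidney (SD, n = 4 each), with an interval of 0.934 to 1.18-fold. A rise of Rhbdf1 transcript beyond 1.18-fold lies outside that interval. Frmd8, whose product stabilises iRhoms at the cell surface, averaged 41.6 ± 2.07 CPM in Rhbdf2-/- and 41.5 ± 1.47 CPM in WT kidney (0.929 to 1.08-fold). Adam17, the protease that iRhom2 escorts, averaged 51.9 ± 1.66 CPM in Rhbdf2-/- and 51.0 ± 2.10 CPM in WT kidney (0.950 to 1.09-fold). Adam10, the related sheddase that needs no iRhom, had an interval of 0.886 to 1.09-fold.

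Timp3, which encodes the tissue inhibitor of ADAM17, was the member furthest from WT. It was listed at 118, 99.0, 102 and 108 CPM in Rhbdf2-/- libraries, against 143, 126, 136 and 114 CPM in WT libraries. Library iR2ko_334 was above WT_550, so the groups overlapped by 1 library each (log2 change -0.28, interval -0.46 to -0.10; limma adjusted p = 0.391). Of the 14 measured genes of this machinery, 0 passed the adjusted test, 0 were higher and 3 lower at an unadjusted p under 0.05 (Timp3, Rhbdf2 and the sorting protein gene Pacs2), and all 14 intervals lay within 1.5-fold.

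Ligands and receptors of the EGF receptor family came next in the pathway. Egf, made by the distal tubule and released into urine, was listed at 2639, 2197, 1996 and 1991 CPM in Rhbdf2-/- libraries, against 2147, 1891, 1857 and 2065 CPM in WT libraries, with overlap (log2 change 0.14, interval -0.08 to 0.36). Hbegf, whose product HB-EGF is an ADAM17 substrate, was listed at 13.5, 9.63, 10.4 and 9.62 CPM in Rhbdf2-/- libraries, against 9.64, 14.7, 10.7 and 9.34 CPM in WT libraries. One library of each genotype stood above the rest, and the interval was -0.36 to 0.30. Tgfa, another shed ligand, had an interval of -0.31 to 0.16, and Btc (betacellulin) of -0.62 to 0.16.

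The receptors were lower on average. Egfr was listed at 52.2, 65.3, 63.3 and 67.9 CPM in Rhbdf2-/- libraries, against 67.8, 81.3, 66.1 and 72.7 CPM in WT libraries. iR2ko_355 alone reached the WT range (log2 change -0.21 ± 0.09 SE, interval -0.42 to -0.00; limma adjusted p = 0.538). Its partners Erbb2 (-0.17 ± 0.07) and Erbb3 (-0.20 ± 0.09) were likewise below 0 without passing, whereas Erbb4 was at 0.05 ± 0.10. Of 11 measured genes of this family 0 were higher and 3 lower at an unadjusted p under 0.05, with a median log2 change of -0.08 against 0.00 over all genes. Leaving out 1 library brought these 3 down to 0 without iR2ko_352 and to 1 without any of the others except iR2ko_355.

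TNF and its receptors gave no sign of a difference larger than the spread. Tnf was barely transcribed, at 0.183, 0.266, 0.556 and 0.435 CPM in Rhbdf2-/- libraries against 0.382, 0.332, 0.343 and 0.239 CPM in WT libraries, or 5 to 18 reads a library, so its interval of 0.823 to 1.27-fold holds on the log2(CPM + 1) scale, which understates change at such levels. Tnfrsf1a, the receptor for soluble TNF, had an interval of 0.979 to 1.15-fold, and Tnfrsf1b of 0.840 to 1.23-fold. Of 25 measured genes induced by TNF and NF-kB, 0 were higher and 1 lower at an unadjusted p under 0.05, and their median was 0.01. The exception was Sele, which encodes the endothelial adhesion molecule E-selectin. It was listed at 0.492, 0.533, 0.994 and 0.685 CPM in Rhbdf2-/- libraries, against 2.42, 1.76, 1.55 and 1.48 CPM in WT libraries, without overlap (log2 change -0.74 ± 0.15; limma adjusted p = 0.259). Among 27 measured substrates of ADAM17 1 was higher (Csf1r) and 2 lower (Kl and Alcam) at an unadjusted p under 0.05, with a median of -0.05. Kl, which encodes Klotho, a coreceptor of the phosphate hormone FGF23, was listed at 786, 673, 664 and 758 CPM in Rhbdf2-/- libraries, against 934, 722, 836 and 908 CPM in WT libraries, with overlap. Among 21 early and feedback genes of ERK, the kinase cascade below the EGF receptor, 1 was higher (Ier2, 0.19 ± 0.08) and 0 lower, with a median of 0.02.

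**Figure D2:**
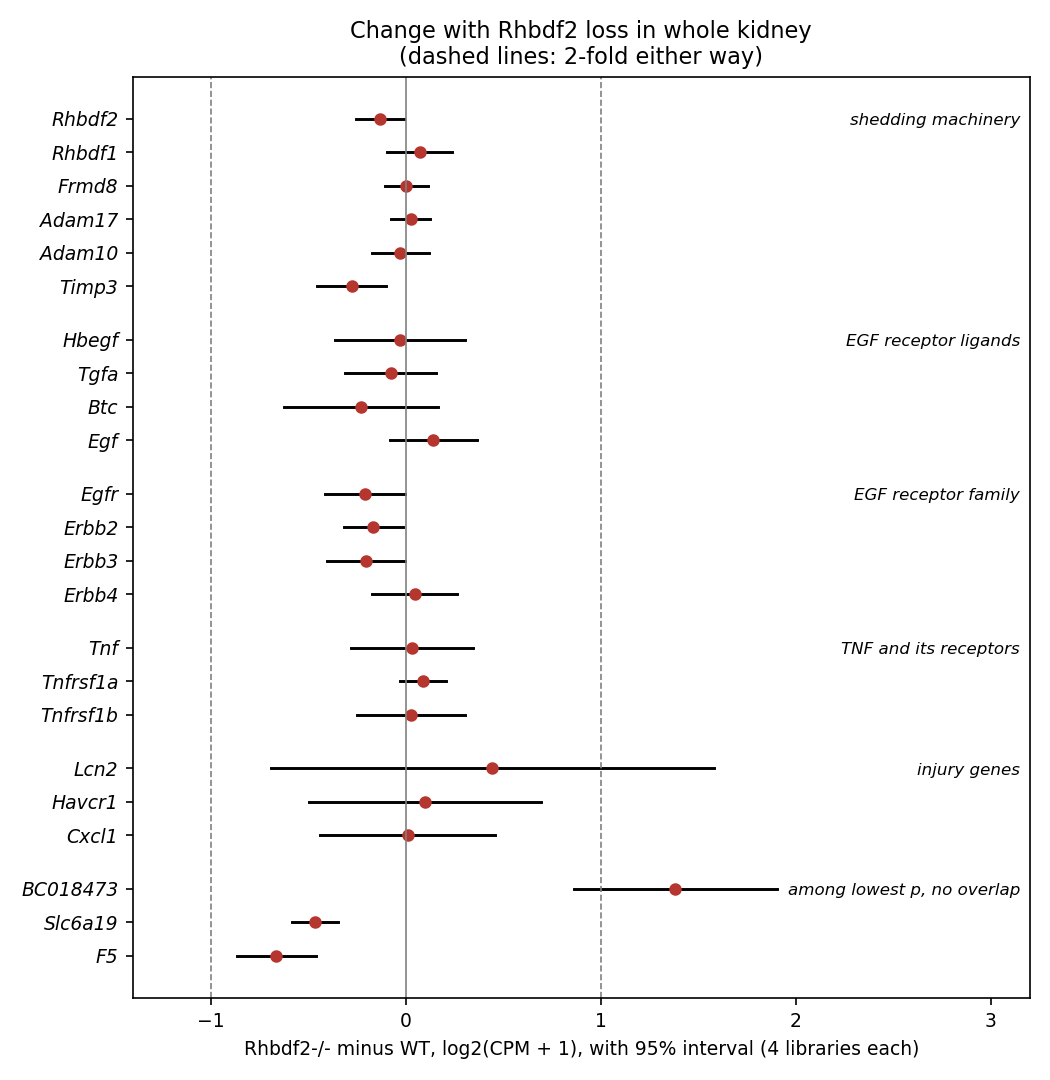
Change in Rhbdf2-/- relative to WT kidney with its 95% interval for 20 pathway and injury genes and for 3 of the genes of smallest p whose groups did not overlap. All pathway intervals lie between the dashed 2-fold lines, whereas those of Lcn2 and BC018473 reach past them.

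Genes of kidney injury did not separate the genotypes. Havcr1, which encodes the tubular injury marker KIM-1, averaged 1.00 ± 0.356 CPM in Rhbdf2-/- and 0.961 ± 0.814 CPM in WT kidney (SD, n = 4 each; 0.709 to 1.62-fold). At so low a level this interval holds on the log2(CPM + 1) scale and does not bound the ratio of CPM. Lcn2, which encodes the injury marker NGAL, was listed at 2.59, 2.58, 2.31 and 15.5 CPM in Rhbdf2-/- libraries, against 2.30, 5.41, 1.89 and 2.35 CPM in WT libraries. Its wide interval, 0.619 to 2.99-fold, rests on iR2ko_355, without which the log2 change was -0.12. Of 23 measured injury genes 0 were higher and 0 lower at an unadjusted p under 0.05. Their median was -0.07, with 17 estimates below 0 and 6 above. These intervals can be set beside the Fcgr2b-/- kidneys of the same series, which have nephritis and share no library with the Rhbdf2-/- group but share the WT libraries. There Havcr1 was higher than WT by 6.16 ± 0.71, Lcn2 by 6.73 ± 0.62 and Hbegf by 1.45 ± 0.17 on the log2 scale (limma over 16 libraries, adjusted p = 5.80e-06, 8.48e-07 and 6.85e-06). With Fcgr2b intact, the upper bounds for Rhbdf2 loss on the log2(CPM + 1) scale were 0.69 for Havcr1, 1.58 for Lcn2 and 0.30 for Hbegf. Whether Rhbdf2 loss acts differently with Fcgr2b absent was tested as an interaction over the 16 libraries, which 27.8% of all genes passed. Of 10 genes examined 8 passed, Hbegf with a difference between the effects of 1.33 and Rhbdf1 of 0.82, while Tnf (0.33, limma adjusted p = 0.653) and Egfr (-0.07, 0.754) did not.

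Among the genes of smallest p, that with the largest estimate above 0 lies beside Rhbdf2. BC018473, an uncharacterised transcript at chr11:116752166-116759373, 125 kb from Rhbdf2, was listed at 34.2, 19.4, 28.5 and 20.7 CPM in Rhbdf2-/- libraries, against 12.4, 10.7, 8.30 and 5.87 CPM in WT libraries. All 4 Rhbdf2-/- libraries were above the highest WT library (log2 change 1.38 ± 0.23, interval 0.86 to 1.90; limma adjusted p = 0.237). Of the 46 measured genes within 1 Mb of Rhbdf2, 3 were higher and 6 lower at an unadjusted p under 0.05, 19.6% against 9.23% of all genes, and 8 did not overlap, 17.4% against 5.73% of all genes. Mxra7, 176 kb away, was listed at 6.08, 4.86, 5.42 and 7.43 CPM in Rhbdf2-/- libraries, against 7.87, 8.96, 8.27 and 8.62 CPM in WT libraries, without overlap (-0.45 ± 0.11). Mettl23, 216 kb away and coding for an arginine methyltransferase, had a log2 change of -0.23 ± 0.06, Mif4gd, 985 kb away on the other side, of 0.22 ± 0.05, and Exoc7, an exocyst subunit gene, of -0.17 ± 0.05.

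The sorted kidney macrophages of the series, 3 Rhbdf2-/- and 3 WT libraries normalised separately, showed far larger differences in the same stretch. There 5 of 10523 genes passed the adjusted test (0.0475%), where 4.43% had an unadjusted p under 0.05, and all 5 lie on chromosome 11. BC018473 was listed at 683, 677 and 1343 CPM in Rhbdf2-/- macrophages, against 1.08, 0.252 and 1.36 CPM in WT macrophages (limma adjusted p = 1.08e-04). St6galnac1, a sialyltransferase gene 138 kb from Rhbdf2, had 1027, 958 and 1013 reads in Rhbdf2-/- macrophages and 0, 3 and 0 reads in WT macrophages (adjusted p = 6.62e-05). Its relative St6galnac2, 48.3 kb away, was listed at 150, 121 and 169 CPM in Rhbdf2-/- macrophages, against 12.8, 8.71 and 3.72 CPM in WT macrophages (adjusted p = 0.0189). The predicted gene Gm11735, 112 kb away, had 171, 188 and 202 reads in Rhbdf2-/- macrophages and 0 reads in each WT library, and Gm11709, 1582 kb away, was listed at 16.2, 16.3 and 16.7 CPM against 4.18, 3.94 and 4.18 CPM. The 5 genes named here were singled out after their values were seen. In whole kidney St6galnac2 went the other way, with a log2 change of -0.26 ± 0.11 against 4.09 ± 0.37 in macrophages, and so did Mxra7, at 1.69 ± 0.20 in macrophages. St6galnac1, Gm11735 and Gm11709 are outside the kidney table.

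Some genes of this stretch, but not all, were also high in libraries without an Rhbdf2-/- label. In macrophages of Fcgr2b-/- mice, whose genotype label names no Rhbdf2 mutation, St6galnac1 had 1, 111 and 63 reads and BC018473 was listed at 0.487, 361 and 317 CPM, and in double-mutant macrophages BC018473 was listed at 421, 1020 and 596 CPM. Mxra7 was not high in Fcgr2b-/- macrophages, at 0.487, 0.339 and 0.574 CPM against 0.790, 0.668 and 0.635 CPM in WT macrophages. Gm11709 had 60, 96 and 163 reads in Fcgr2b-/- macrophages, against 142, 141 and 137 reads in WT macrophages. In kidney, BC018473 was also listed in 8 libraries not used in the comparison. It was at 25.7, 28.8, 20.9 and 29.0 CPM in double mutants, against 13.6, 15.0, 16.7 and 0.164 CPM in Fcgr2b-/- libraries. These groups again did not overlap (log2 change 1.69 ± 0.63, limma adjusted p = 0.0404). Library FcR2bko_594 was nearly at 0 there, and without it, an alternative chosen after seeing the data, the log2 change was 0.74 ± 0.22 (limma adjusted p = 0.0135). Without any 1 of the 4 double-mutant libraries the adjusted p was 0.0534 to 0.0794. Of the 16 genes of smallest p without overlap, 8 above and 8 below 0, which include BC018473 and those of the next paragraphs, 10 passed in that comparison, where 45.3% of all genes did. Their sign was that of Rhbdf2-/- minus WT for 2, BC018473 and Slc7a2, and the opposite for 8.

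**Figure D3:**
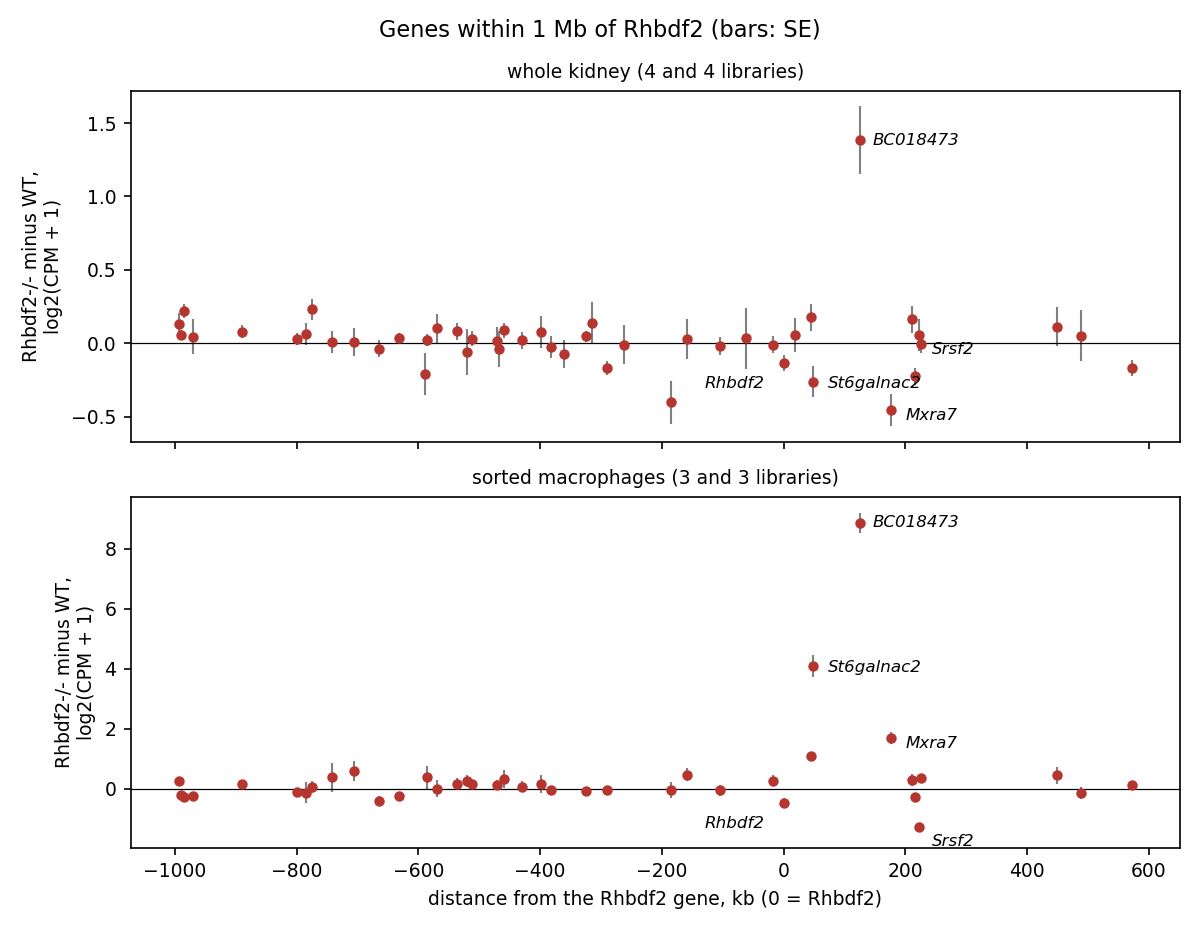
Change in Rhbdf2-/- relative to WT (log2(CPM + 1), bars SE) of genes within 1 Mb of Rhbdf2, by distance in kb, in whole kidney above and sorted macrophages below, on different scales. BC018473 stands above the rest in both, at 1.38 in kidney and 8.86 in macrophages; St6galnac2 is at 4.09 in macrophages and -0.26 in kidney.

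Other genes of smallest p without overlap are given in the order of their roles. Slc6a19, which encodes the neutral amino acid transporter of the proximal tubule brush border, was listed at 313, 361, 346 and 335 CPM in Rhbdf2-/- libraries, against 484, 479, 458 and 449 CPM in WT libraries. All 4 Rhbdf2-/- libraries lay below the lowest WT library (log2 change -0.46 ± 0.05; limma adjusted p = 0.101). Slc7a2, a cationic amino acid transporter gene, was listed at 7.75, 11.2, 9.04 and 8.40 CPM in Rhbdf2-/- libraries, against 15.6, 13.9, 14.6 and 14.8 CPM in WT libraries. F5, which encodes coagulation factor V, was listed at 17.3, 15.6, 18.4 and 19.2 CPM in Rhbdf2-/- libraries, against 32.5, 25.0, 29.9 and 26.9 CPM in WT libraries. All 3 genes were lower in every Rhbdf2-/- library than in any WT library. Trp53inp1, a p53-induced gene, Fgd4, which encodes an activator of CDC42, the transporter gene Slc35f1 and the kinesin gene Kif27 had log2 changes of -0.27 ± 0.04, -0.31 ± 0.05, -0.47 ± 0.07 and -0.69 ± 0.11.

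Of the genes above WT, Syt12, a synaptotagmin gene, was listed at 6.14, 4.45, 5.12 and 7.34 CPM in Rhbdf2-/- libraries, against 3.13, 2.85, 2.40 and 3.65 CPM in WT libraries (0.75 ± 0.15). Gadd45a, a growth arrest and DNA damage gene, was at 25.4 to 26.6 CPM in Rhbdf2-/- libraries and 21.5 to 22.9 CPM in WT libraries (0.23 ± 0.04). Bri3 (0.25 ± 0.04), the translation factor gene Eif6 (0.19 ± 0.04), the ribosomal protein gene Rps29 (0.19 ± 0.04) and Ttpa, which encodes the vitamin E transfer protein (0.35 ± 0.07), were each without overlap. mt-Co2, a mitochondrially encoded subunit of cytochrome c oxidase, was at 3.79 to 4.25 CPM in Rhbdf2-/- libraries and 2.26 to 3.10 CPM in WT libraries. The 13 mitochondrially encoded genes summed to 120368 to 129694 CPM in Rhbdf2-/- and 110239 to 124406 CPM in WT libraries. Why mt-Co2 was listed at so small a part of them was not tested. Mitochondrially encoded transcripts together took 11.8% ± 0.234 of reads in Rhbdf2-/- and 11.0% ± 0.634 in WT libraries (SD, n = 4 each; two-sided exact permutation p = 0.0571, adjusted over 3 shares 0.0857; the smallest p possible is 0.0286), and their part in these differences was not tested.

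Lists of genes were read by their counts, beside 51.5% of all genes with an estimate above 0. The RNA was that of kidney: the 10 genes of highest level per kilobase in WT were 8 mitochondrially encoded genes, the tubular peroxidase gene Gpx3 and Kap, a proximal tubule gene. Gpx3 stood at 16740 ± 854 CPM per kilobase in Rhbdf2-/- and 16386 ± 998 CPM per kilobase in WT kidney (SD, n = 4 each). In whole tissue, fewer cells of a type and less RNA per cell cannot be told apart. No gene of any list passed the adjusted test. The list furthest above 0 held interferon-stimulated genes: 35 of 36 measured had an estimate above 0, with a median of 0.34, and 11 were higher and 0 lower at an unadjusted p under 0.05 (3.79% and 5.44% of all genes). Irf7, the transcription factor that amplifies type I interferon, was listed at 19.0, 14.9, 35.0 and 42.0 CPM in Rhbdf2-/- libraries, against 10.6, 16.8, 16.9 and 13.7 CPM in WT libraries. Bst2, which encodes the antiviral protein tetherin, was listed at 22.6, 20.0, 33.0 and 33.6 CPM in Rhbdf2-/- libraries, against 17.3, 19.8, 20.6 and 17.1 CPM in WT libraries. Irf9, part of the complex that carries the interferon signal, was listed at 26.5, 21.2, 29.5 and 31.2 CPM in Rhbdf2-/- libraries, against 19.4, 21.0, 22.0 and 21.3 CPM in WT libraries. In all 3 genes iR2ko_352 and iR2ko_355 were highest and iR2ko_351 was within the WT range. The mean over the list was 3.72, 3.34, 4.05 and 4.13 in Rhbdf2-/- libraries and 3.30, 3.56, 3.605 and 3.41 in WT libraries, on the log2(CPM + 1) scale, and 3 of 36 genes were left at an unadjusted p under 0.05 without iR2ko_352, without iR2ko_355 or without WT_346 and 4 without WT_550, but 26 without iR2ko_351. The fit of all 16 libraries, whose spread includes the more variable groups, left 0.

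The promoters of 3 of these genes are shown because they hold the sequence to which interferon-activated complexes bind, the interferon-stimulated response element, searched on both strands as TTTC and TTTC with any 2 bases between (GAAA and GAAA on the other strand). The element was present in 14 of 26 measured list members with a RefSeq promoter (250 bases before to 50 after the gene's start, GRCm38.p6), or 53.8%, against 3.70% of the 9288 measured genes with one. A match describes these letters and is not a binding site measured here. The share describes the genes of the list, not their level in these libraries. A second search took the sterol regulatory element (TCAC and CCAC with any 1 base between) in cholesterol synthesis genes. It matched 1 of 12 members with a promoter, Hmgcs1, or 8.33%, against 1.45% of the measured genes. The 3 holders of smallest p are printed on the gene's own strand with matches in capitals, Bst2 at chr8:71537423-71537722 on the minus strand, Irgm1 at chr11:48871371-48871670 on the minus strand and Ifit1 at chr19:34640639-34640938 on the plus strand. Each holds 2 matches, which overlap in Bst2 and Irgm1.
Bst2: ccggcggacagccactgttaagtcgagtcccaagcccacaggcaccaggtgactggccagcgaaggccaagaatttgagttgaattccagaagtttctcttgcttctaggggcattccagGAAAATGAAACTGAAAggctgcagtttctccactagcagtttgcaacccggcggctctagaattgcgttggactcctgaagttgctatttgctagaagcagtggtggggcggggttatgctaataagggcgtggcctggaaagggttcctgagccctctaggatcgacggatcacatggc
Irgm1: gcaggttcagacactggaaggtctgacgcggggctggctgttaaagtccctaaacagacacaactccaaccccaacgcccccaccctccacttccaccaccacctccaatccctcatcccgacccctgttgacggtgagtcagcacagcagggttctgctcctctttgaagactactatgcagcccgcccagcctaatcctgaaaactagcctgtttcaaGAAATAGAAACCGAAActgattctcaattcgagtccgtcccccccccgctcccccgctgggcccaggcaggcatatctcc
Ifit1: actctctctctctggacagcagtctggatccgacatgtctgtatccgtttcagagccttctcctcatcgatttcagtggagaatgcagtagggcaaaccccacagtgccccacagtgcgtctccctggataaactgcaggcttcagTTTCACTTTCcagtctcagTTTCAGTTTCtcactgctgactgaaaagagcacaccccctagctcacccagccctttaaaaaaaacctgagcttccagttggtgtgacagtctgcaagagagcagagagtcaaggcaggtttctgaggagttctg
Irgm1, an interferon-induced GTPase gene, was listed at 72.1, 73.0, 103 and 105 CPM in Rhbdf2-/- libraries, against 66.4, 66.4, 72.8 and 68.5 CPM in WT libraries, and Ifit1, which encodes an RNA-binding antiviral protein, at 10.0, 6.52, 16.2 and 17.4 CPM against 6.66, 7.63, 8.78 and 6.78 CPM. In both, the same pair of libraries, iR2ko_352 and iR2ko_355, stood highest.

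Markers of macrophages followed the same libraries. Of 22 measured, 20 had an estimate above 0 (median 0.23) and 3 were higher at an unadjusted p under 0.05, or 11 without iR2ko_351, 5 without iR2ko_334, 0 without iR2ko_352 and 1 without iR2ko_355, WT_346, WT_356 or WT_550. C1qb, a complement gene of tissue macrophages, was listed at 34.0, 27.0, 50.4 and 47.3 CPM in Rhbdf2-/- libraries, against 26.0, 28.1, 31.1 and 27.7 CPM in WT libraries. Csf1r, which encodes the receptor for the macrophage growth factor, was listed at 92.3, 89.0, 98.2 and 91.3 CPM in Rhbdf2-/- libraries, against 77.3, 77.2, 92.5 and 79.0 CPM in WT libraries. It did not follow those libraries, since iR2ko_355 was below iR2ko_334 and WT_388. Summed over the list, markers reached 773, 585, 987 and 1040 CPM in Rhbdf2-/- libraries and 590.8, 664, 751 and 636 CPM in WT libraries. The 2 Rhbdf2-/- libraries high in interferon genes were thus high in the sum of macrophage markers, and the part of the markers in the interferon list was not tested. All 9 measured T and NK cell markers had an estimate above 0 (median 0.15, 0 at an unadjusted p under 0.05), and their sum was 10.9, 10.2, 20.0 and 26.1 CPM in Rhbdf2-/- libraries against 10.8, 14.2, 15.8 and 12.4 CPM in WT libraries. Of 13 markers of B and plasma cells 7 were measured, with 0 at an unadjusted p under 0.05, and of 13 neutrophil markers only S100a9 and Csf3r were measured, together at 1.32 to 2.71 CPM in Rhbdf2-/- libraries and 1.33 to 2.34 CPM in WT libraries.

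Estimates for genes of the lining of the renal pelvis were mostly below 0. Of 12 measured urothelial markers 11 had an estimate below 0, with a median of -0.76, and 5 were lower at an unadjusted p under 0.05. The uroplakins form the plaques of the urothelial surface. Upk1b was listed at 2.44, 2.52, 2.11 and 3.43 CPM in Rhbdf2-/- libraries, against 9.23, 7.02, 6.15 and 4.398 CPM in WT libraries (-1.06 ± 0.19). Upk1a was listed at 3.77, 4.45, 4.10 and 2.72 CPM in Rhbdf2-/- libraries, against 14.4, 10.7, 7.44 and 5.81 CPM in WT libraries (-1.10 ± 0.24). Upk2 was listed at 1.23, 1.13, 1.05 and 1.31 CPM in Rhbdf2-/- libraries, against 4.72, 3.92, 2.58 and 1.84 CPM in WT libraries (-0.92 ± 0.20). In these 3 genes each Rhbdf2-/- library lay below each WT library, and WT_346 was highest. Krt5, a keratin of the basal layer, did not follow: iR2ko_355 had 13.8 CPM against 1.39 to 1.78 CPM in the other Rhbdf2-/- libraries and 3.04 to 8.93 CPM in WT libraries. How much of the pelvis each sample held is not recorded, and its part was not tested. The count stayed at 5 when any 1 of the other 7 libraries was left out, and was 10 without iR2ko_355.

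Most estimates for genes of stroma and smooth muscle were also below 0. Of 30 measured, 26 had an estimate below 0 (median -0.32), and 0 were higher and 10 lower at an unadjusted p under 0.05. Myh11, the myosin of smooth muscle, was listed at 31.5, 29.3, 34.4 and 36.6 CPM in Rhbdf2-/- libraries, against 47.9, 44.6, 37.3 and 50.2 CPM in WT libraries, without overlap by less than 1 CPM (-0.43 ± 0.10). Tagln, an actin-binding protein of the same cells, was at -0.43 ± 0.10 and Acta2, smooth muscle actin, at -0.43 ± 0.12, both with overlap. Postn, a matrix protein of fibroblasts, was listed at 3.55, 3.65, 3.10 and 7.12 CPM in Rhbdf2-/- libraries, against 7.55, 8.26, 9.65 and 7.41 CPM in WT libraries (-0.83 ± 0.20). The collagen genes Col1a1 and Col3a1 had log2 changes of -0.69 and -0.67, with wider spread. Here too iR2ko_355 stood nearest to WT, and 19 of the 30 were lower at an unadjusted p under 0.05 without it, 15 without WT_346 and 6 without WT_388 or iR2ko_352. The fit of all 16 libraries, whose spread includes the more variable groups, left 1.

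Estimates for cholesterol synthesis genes were mostly below 0. Of 20 measured, 19 had an estimate below 0 (median -0.30), and 0 were higher and 7 lower at an unadjusted p under 0.05, or 2 without WT_346 and 3 without WT_388, iR2ko_334 or iR2ko_351. Stard4, a cholesterol carrier gene, was listed at 131, 113, 134 and 134 CPM in Rhbdf2-/- libraries, against 178, 137, 153 and 141 CPM in WT libraries. Fdps, the synthase of farnesyl diphosphate, was at -0.52 ± 0.21 and Mvd, an enzyme of the mevalonate branch, at -0.26 ± 0.09, both with overlap.

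**Figure D4:**
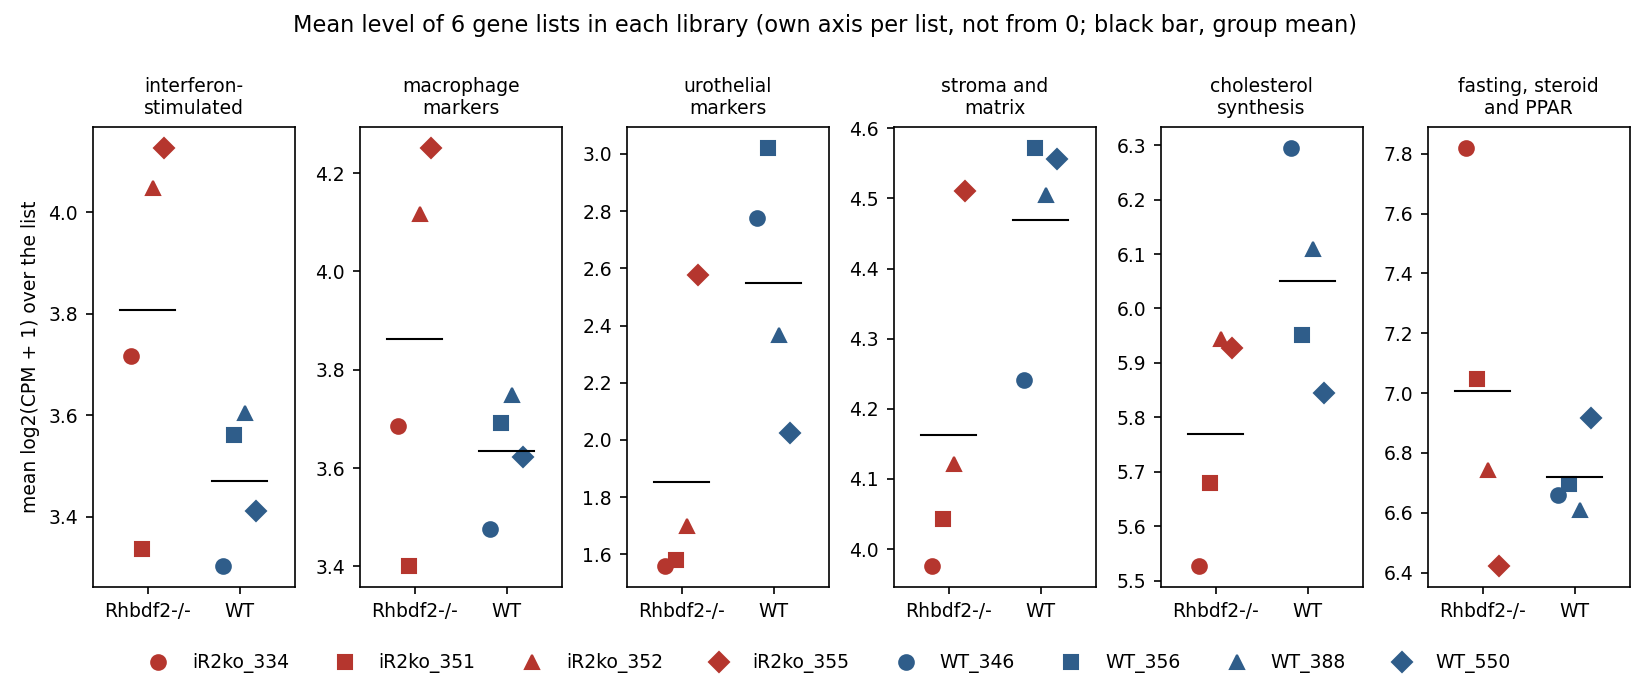
Mean log2(CPM + 1) of 6 gene lists in each of the 8 libraries, Rhbdf2-/- left and WT right, on an axis of its own for each list. iR2ko_352 and iR2ko_355 are highest for interferon and macrophage genes, at 4.05 and 4.13 for interferon genes, and iR2ko_334 is highest for fasting, steroid and PPAR genes.

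One Rhbdf2-/- library carried most of what was seen in metabolic genes. Of 21 measured genes that respond to fasting, glucocorticoids and the fatty acid receptor PPAR, 19 had an estimate above 0 (median 0.24), and 1 was higher and 0 lower at an unadjusted p under 0.05. Without iR2ko_334, 14 were above 0 and the median was 0.04. Fkbp5, a glucocorticoid receptor chaperone gene, was listed at 168, 62.9, 54.5 and 31.3 CPM in Rhbdf2-/- libraries, against 38.9, 35.1, 30.9 and 46.5 CPM in WT libraries. Zbtb16, induced by glucocorticoids, was listed at 46.0, 5.48, 10.1 and 1.28 CPM in Rhbdf2-/- libraries, against 2.80, 4.16, 1.29 and 2.71 CPM in WT libraries. Pdk4, which encodes an inhibitor of glucose oxidation, had 281 CPM in iR2ko_334 and 18.4 to 56.5 CPM in the other 7 libraries.

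Segments of the nephron were near 0 as lists. The medians were 0.06 for 29 proximal tubule genes, 0.00 for 25 genes of the thick limb and distal tubule, 0.05 for 21 collecting duct genes, -0.07 for 14 podocyte genes and -0.05 for 16 endothelial genes. Estimates above 0 were found for 17 of 29 proximal tubule genes and 12 of 25 genes of the thick limb and distal tubule. The counts were 17 of 21 for collecting duct, 2 of 14 for podocyte and 6 of 16 for endothelial genes. All 14 podocyte intervals lay within 1.5-fold. In the proximal tubule 1 gene was higher and 5 lower at an unadjusted p under 0.05. Slc5a2, the glucose transporter SGLT2, was listed at 474, 452, 426 and 417 CPM in Rhbdf2-/- libraries, against 643, 499, 509 and 543 CPM in WT libraries, without overlap (-0.30 ± 0.08). Gatm, the first enzyme of creatine synthesis, averaged -0.39 ± 0.12 and Acsm2, a medium-chain acyl-CoA synthetase gene, -0.24 ± 0.07, also without overlap. Acmsd, which diverts tryptophan from NAD synthesis, was listed at 62.5, 58.4, 60.0 and 43.5 CPM in Rhbdf2-/- libraries, against 93.2, 72.5, 76.2 and 85.4 CPM in WT libraries. NRF2 targets had 4 genes higher and 0 lower of 20, led by Nqo1 (0.31 ± 0.12), but 0 higher without WT_356, WT_550 or iR2ko_351 and 1 without iR2ko_334.

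The 178 genes whose interval was not within 2-fold marked the limit of what the 8 libraries can show. They included 19 immunoglobulin genes, and 153 of the 178 intervals held 0. Camk2d, a calmodulin-dependent kinase gene at chr3:126596301-126844913, had 0, 1, 3 and 6 reads in Rhbdf2-/- libraries, against 703, 681, 9 and 677 reads in WT libraries. WT_388 was thus close to the Rhbdf2-/- group, and the groups still did not overlap (log2 change -3.28 ± 0.83, interval -5.14 to -1.41; limma adjusted p = 0.326). Without WT_388 Camk2d was the 1 gene called (limma adjusted p = 6.41e-07). In the other kidney groups it was at 0.186, 21.3, 0.0783 and 21.5 CPM in double mutants, against 27.0, 53.7, 0.191 and 27.6 CPM in Fcgr2b-/- libraries. In sorted macrophages Camk2d was not low in Rhbdf2-/- mice, at 55.1, 46.9 and 48.2 CPM against 51.1, 53.9 and 56.4 CPM in WT macrophages. Values near 0 were found there too, at 0.144, 0.0581 and 0.0602 CPM in Fcgr2b-/- macrophages. Double-mutant macrophages were at 0.0898, 23.8 and 58.0 CPM.

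Phyh, the peroxisomal enzyme that starts the breakdown of phytanic acid, was split between libraries of both genotypes. It was listed at 11.4, 458, 209 and 220 CPM in Rhbdf2-/- libraries, against 12.6, 10.2, 466 and 11.5 CPM in WT libraries. Its interval ran from -1.13 to 5.23. Wdfy1, an endosomal protein gene, was listed at 54.8, 17.5, 17.7 and 50.1 CPM in Rhbdf2-/- libraries, against 96.1, 89.4, 58.3 and 85.9 CPM in WT libraries, without overlap (-1.38 ± 0.38; limma adjusted p = 0.375). WT_388 was the lowest WT library for Camk2d and Wdfy1 and the highest for Phyh. Camk2d, Phyh and Wdfy1 were named after their values were seen.

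**Figure D5:**
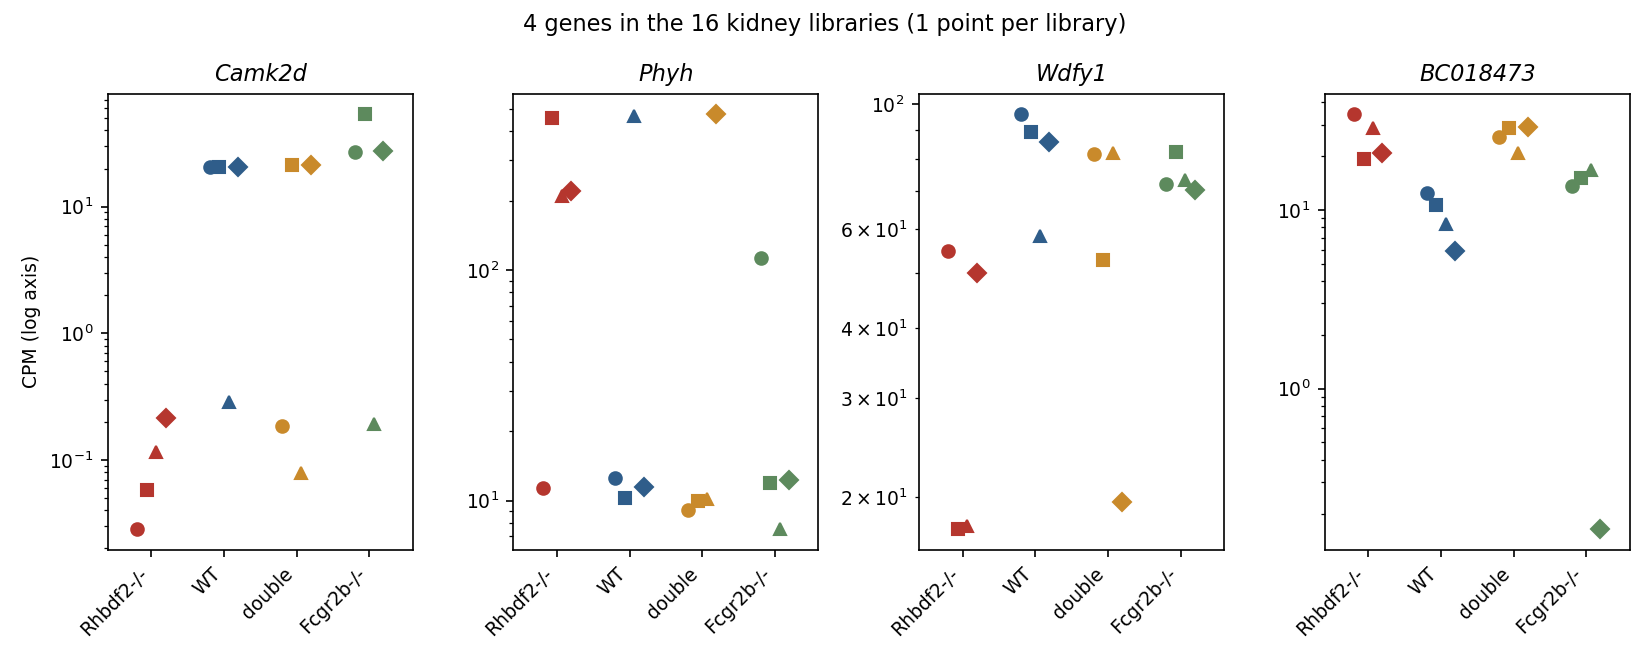
CPM on a log axis of Camk2d, Phyh, Wdfy1 and BC018473 in the 16 kidney libraries, 1 point per library, with Rhbdf2-/- left of WT and double mutants left of Fcgr2b-/-. Camk2d takes values near 0 or above 20 CPM within 3 of the 4 groups, and WT_388 is the only WT library low in it.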

How the data were processed

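RNA sequencing of whole kidney was analysed in 4 Rhbdf2-/- and 4 WT libraries, with groups taken from the genotype label. Per the file headers, the authors deposited a log2 CPM value per gene and library, and their own log2 fold changes, p-values, FDR and F score. The authors' gene lengths, also deposited, served only for levels per kilobase. The submitters' processing notes name mm10 and GRCm38. For aligner, counter, annotation and strand the sources used here give nothing. Values of overlapping genes, of antisense genes and of multigene families such as immunoglobulins are therefore uncertain.

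CPM was taken as the antilog of the deposited values, and log2(CPM + 1) of all 12315 genes entered a linear model in R 4.3.3 with limma 3.58.1 (trend, 8 libraries, no filter), with Benjamini-Hochberg adjustment over all genes. Fold changes are on that scale, with a pseudocount of 1 CPM, and understate the change of low genes. Intervals are 95% limma intervals, not adjusted. Low values of each library were whole multiples of 1 read (100% of values up to 50 reads, tolerance 0.1 read), which gave read numbers, and 3 reads, taken as the floor, were worth 0.0859 to 0.0938 CPM, which covers counting error only. Values listed for genes with 0 reads are the authors' small prior. Macrophage libraries were fitted alone, since the tables were normalised separately. No library was identical to another (0 pairs), and 0 value columns were left unmapped.

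The members and gene lists were chosen with earlier results of these data known. Named genes were pathway genes given whatever their result, the 8 rises and 8 falls of smallest p without overlap and a mean log2 CPM of at least 1, up to 3 members of smallest p per list, 3 genes near Rhbdf2 and the 10 of highest level. Predicted genes, clones, pseudogenes and immunoglobulin segments were left out of the rises and falls. Some genes that the rule names are not reported here. Other genes are named as chosen after their values were seen, among them further list members given to show a list's spread. Ccl2 is not in the kidney table. Lists that the text does not describe gave 0 called genes as well: circadian clock genes had a median of 0.02, handling stress genes of 0.13, renin-angiotensin genes of -0.04, sex-biased genes of 0.07, proliferation genes of 0.04, adipose markers of 0.16, erythroid transcripts of -0.03, the adrenal cortex marker measured 0.05, mitochondrially encoded genes 0.13, coagulation genes -0.10, tryptophan and NAD enzymes -0.01, B and plasma cell markers 0.20 and genes within 5 Mb of Rhbdf2 0.02. The fits were tested on simulated data. Alternatives were the fit of 16 libraries, a pseudocount of 0.25 CPM, the deposited log2 CPM unchanged, a mean of at least 1 CPM, 2 rescalings, limma-voom on recovered reads, untrended and robust variance, and leaving out each library. Python 3.11.15 with pandas 2.3.3 and matplotlib 3.10.9 served for tables and figures.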

Additional observations from a re-analysis of the deposited data

Results flagged for a closer look

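Single libraries stood far from the other 3 of their genotype in 12 of 270 groups of 4 examined (4.44%), and chance gives about 1 in 20 groups. Library iR2ko_355 was the high one for Lcn2 (15.5 CPM), for Cd79a, a B cell receptor subunit gene (7.87 CPM), for Eng, an endothelial receptor gene (135 CPM), and for Mif4gd (75.1 CPM). Library iR2ko_334 stood apart for Dusp1, an ERK phosphatase gene (38.3 CPM), iR2ko_352 was low for Ttpa (13.0 CPM), and iR2ko_351 was low for Stard4 (113 CPM). Among WT libraries, WT_356 stood apart for the chemokine gene Cxcl1 (0.758 CPM), for Dusp1 (35.8 CPM) and for Atp6v1b1, a proton pump subunit gene (127 CPM), WT_388 for Csf1r (92.5 CPM) and WT_346 for Gatm (2976 CPM).

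For 8 of 10 genes examined, the effect of Rhbdf2 loss with Fcgr2b present (Rhbdf2-/- minus WT) differed from its effect with Fcgr2b absent (double mutant minus Fcgr2b-/-) by a limma interaction test over 16 libraries, which 27.8% of all genes passed. The first effect less the second was 0.82 for Rhbdf1, 1.33 for Hbegf, 4.95 for Lcn2, 4.11 for Havcr1, 2.78 for Cxcl1 and 1.79 for Socs3, a cytokine feedback gene. It was -4.44 for Kap and -2.19 for Egf. Lane and genotype cannot be told apart in either effect.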

How the results depend on the processing

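Under the alternatives run on the 8 libraries and on all 16, the number of genes called stayed at 0, except that 1 gene, Camk2d, was called without WT_388, so that leaving out 1 library gave 0 to 1. Genes whose groups do not overlap, 706 with all libraries, ranged from 942 to 1321 with 1 library left out, where 3 libraries are set against 4 (1321 without iR2ko_334, 1145 without iR2ko_351, 1209 without iR2ko_355, 1263 without WT_356 and 1173 without WT_550). Genes with an interval within 2-fold ranged from 12066 to 12114, within 1.5-fold from 11214 to 11411 and equivalent genes from 12140 to 12176. Genes passing the interaction test, 3418 with all libraries, ranged from 2738 to 3951. The number at an unadjusted p under 0.05, 1137 with 8 libraries, was 272 in the fit of 16 and ranged from 832 to 1220 with 1 library left out. Signs changed under at least 1 setting for 19 of 132 named genes and 15 of 34 list medians. Since 0 genes were called in Rhbdf2-/- minus WT with all 8 libraries, there was no call that could reverse. The median of sex-biased genes was -0.05 without iR2ko_334 and 0.19 without iR2ko_351. The cause was not tested. No paired analysis was possible because each library carries only a number of its own, and replicate numbers followed the order of the records. Under 1 CPM, where a gene has few reads, the median half-width was 0.36, against 0.12 at 100 to 1000 CPM and 0.18 at 1000 CPM and over; the part of depth in this was not tested.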
